A study of Mus musculus with 15 samples.

Results

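The effect of adding a gavage of Faecalibacterium prausnitzii to colitis under immune checkpoint blockade was examined in mouse colon RNA. All 10 mice compared had dextran sulfate sodium (DSS), a polymer that injures the colon lining, and immune checkpoint blockade (ICB), antibodies that release T cells from inhibition. The 5 mice labelled DSS+ICB (called DSS_ICB) had nothing further by their label, and the 5 labelled DSS+ICB+F. prausnitzii gavage (called DSS_ICB_Fp) also had the bacterium by mouth. They are 10 of the 15 libraries of the series, and the other 5, from mice with DSS alone (called DSS), entered the fit to share 1 estimate of the spread and are given beside some results. Each library is the total RNA of colon tissue of 1 mouse. The labels used here name no antibody, control antibody, control gavage, strain, age or cage, and every group carried DSS. The effects of the bacterium, of the act of gavage and of the cage cannot be told apart, and a colon without DSS was not analysed here.

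F. prausnitzii is an obligate anaerobe of the human colon known for making butyrate, the short-chain fatty acid that colonocytes burn as fuel. Checkpoint blockade is known to cause colitis as a side effect. In colitis, epithelial and stromal cells and macrophages release chemokines and interleukins that bring in neutrophils, which carry the calprotectin subunits S100a8 and S100a9. Matrix metalloproteinases cut collagen and other matrix proteins at the wound. Mature colonocytes, which absorb salt and water and carry most of the colon's detoxifying enzymes, are lost as the lining is injured.

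The unit is FPKM, a fragment count scaled to transcript length and to library size, and between 13243 and 14336 genes reached 1 FPKM in each of the 10 libraries, at estimated depths of 15200000 to 24600000 fragments. The epithelial marker Epcam was at 472 FPKM or more in 9 of the 10 mice. Of 10 exocrine pancreas genes listed, Cpa1 and Cela2a were at 0 in all of these mice, and Pnlip was at 0.0138 FPKM in DSS_ICB 2. The 10 genes summed to 7 to 62 FPKM in DSS_ICB and 43.5 to 98.4 FPKM in DSS_ICB_Fp. Only Cela1 was high enough to be tested (log2 difference 1.14 ± 0.44 (SE), limma adjusted p = 0.164, and 0.66 without DSS_ICB 3). The library of DSS_ICB 3 stood apart. Its median rank correlation with the others was 0.725, against 0.864 for DSS_ICB 5 and at least 0.922 for the other 8. In DSS_ICB 3 Epcam was at 83 FPKM, the mucin Muc2 at 13 FPKM and the smooth muscle gene Myh11 at 1288 FPKM, against 150 to 300 FPKM for Muc2 and 71.3 to 435 FPKM for Myh11 in the other 9 mice. Mitochondrially encoded genes made up 33.2% of its FPKM, against 9.39% to 20.5% in the others. It therefore held less epithelial and more muscle RNA than the rest, and values are given with and without it below. Fewer cells of a type and less RNA per cell cannot be told apart in bulk tissue.

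Of 14385 genes tested by limma on log2(FPKM + 1), 18 fell and 1 rose in DSS_ICB_Fp at a Benjamini-Hochberg adjusted p under 0.05, which is 0.125% and 0.00695% of the genes tested. The genes that fell were calprotectin and other neutrophil genes, the cytokines Il1b and Il11, the chemokines Cxcl2 and Ccl22, the acute-phase gene Saa3, 3 matrix metalloproteinases, and Wnt4, Col18a1, Lgi2, Ifitm1 and 1 predicted small RNA gene. Only the carboxylesterase gene Ces1e rose. For all 19, the 5 mice of one group lay on one side of the 5 mice of the other. A threshold of 0.10, added after the data were seen, gave 525 genes, 390 lower and 135 higher. All 15 libraries share 1 spread in this fit, while the median SD of a gene was 0.37 in DSS_ICB and 0.23 in DSS_ICB_Fp on the log2 scale. A limma fit of the 10 compared mice alone passed 0 genes, with 2343 at an unadjusted p under 0.05 and 0.0815 as the smallest adjusted p. In the fit of all 15 libraries 12.4% of the tested genes were lower and 9.34% higher at an unadjusted p under 0.05, and list members counted at that level below are read beside these shares.

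**Figure D1:**
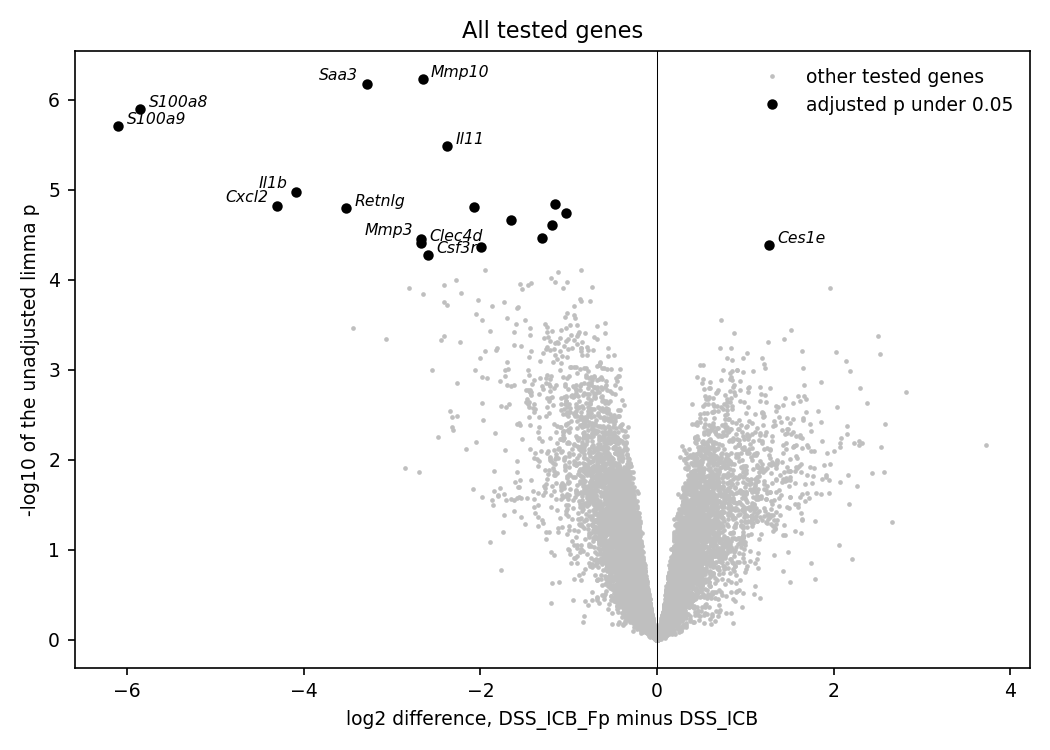
Log2 difference of each of the 14385 tested genes (x axis, DSS_ICB_Fp minus DSS_ICB on the log2(FPKM + 1) scale) against -log10 of the unadjusted limma p (y axis), with 5 mice per group. Black points are the 19 genes with an adjusted p under 0.05, of which 18 lie left of 0 and 1, Ces1e, lies right of it. The differences that reach farthest to the left among them are S100a9 at -6.10 and S100a8 at -5.85.

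A count that does not rest on a shared spread was also made. In 354 genes (2.46% of those tested) all 5 DSS_ICB_Fp mice lay below all 5 DSS_ICB mice, and in 136 genes (0.945%) all 5 lay above, so 27.8% of the genes without overlap were higher. For a gene without overlap the exact two-sided permutation test over the 252 arrangements of 5 against 5 gives 0.00794, the smallest p it can give. A gene that reached 1 FPKM only in the 5 mice of 1 compared group passed the filter through that group. Such a gene could not overlap, and these genes were not counted apart. The split depended on scaling. With median-of-ratios scaling 264 were lower (1.84%) and 290 higher (2.02%), so 52.3% of those without overlap were higher, and with upper-quartile scaling 280 were lower and 265 higher (48.6%). Without DSS_ICB 3 the counts were 676 lower (4.7%) and 154 higher (1.07%). The median difference over all tested genes was -0.04 on the log2 scale, and gene lists are read beside it.

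**Figure D2:**
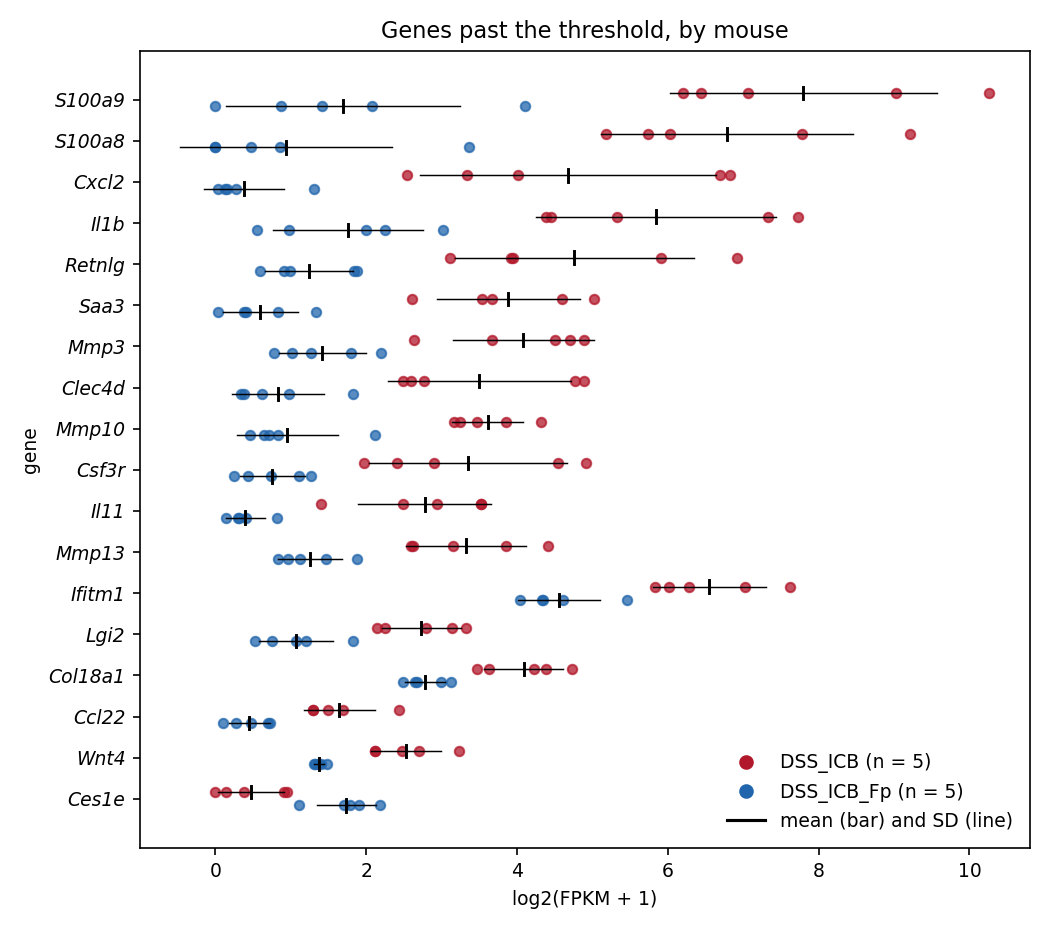
log2(FPKM + 1) in each mouse (points, x axis) for the 18 named genes with an adjusted p under 0.05 (y axis), with 5 DSS_ICB mice in red and 5 DSS_ICB_Fp mice in blue, the group mean as a bar and the SD as a line. The predicted small RNA gene is left out. In every row the colours do not overlap. In S100a8 and S100a9 the DSS_ICB_Fp point farthest right is mouse 4, at 9.3 and 16.3 FPKM.

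The calprotectin genes had the largest differences of the genes that fell. S100a8, 1 subunit of the calprotectin heterodimer, was at 64.5, 35.3, 593, 52.2 and 218 FPKM in DSS_ICB mice 1 to 5 and at 0.389, 0, 0.812, 9.3 and 0 FPKM in DSS_ICB_Fp mice 1 to 5 (log2 difference -5.85 ± 0.75 (SE), limma adjusted p = 0.0061). S100a9, the partner subunit, was at 133, 72.4, 1228, 85.7 and 519 FPKM against 1.67, 0.833, 3.23, 16.3 and 0 FPKM (-6.10 ± 0.81, adjusted p = 0.00702). DSS_ICB 3 and DSS_ICB 5 carried the highest values of both, and mouse 4 was the highest of the gavaged mice in both. Without DSS_ICB 3 the differences were -5.24 and -5.48 (adjusted p = 0.0112 and 0.0135).

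Retnlg, a resistin-like gene of neutrophils, was at 14.4, 7.68, 120, 14.2 and 59 FPKM against 0.875, 0.505, 2.69, 2.57 and 0.99 FPKM. Csf3r, the receptor for the neutrophil growth factor G-CSF, was at 6.49, 4.33, 29.2, 2.93 and 22.4 FPKM against 0.661, 0.35, 1.41, 1.16 and 0.183 FPKM. Clec4d, a lectin receptor of myeloid cells, was at 5.8, 5.04, 28.5, 4.62 and 26.4 FPKM against 0.307, 0.533, 0.96, 2.56 and 0.271 FPKM. In these 3 genes too the high mice were DSS_ICB 3 and DSS_ICB 5, and the groups did not overlap (adjusted p = 0.0229, 0.0404 and 0.034). The calls of Clec4d and Csf3r ended without DSS_ICB 3 (0.0574 each), while Retnlg stayed at 0.0156.

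Of 30 neutrophil genes listed, 16 passed the filter on low values. Of those 16, 5 fell, 11 had no overlap and lay lower, and the median difference was -2.12 (-1.76 without DSS_ICB 3), beside -0.04 over all genes. Cxcr2, the receptor through which neutrophils follow CXC chemokines, was at 0.95 to 11.8 FPKM in DSS_ICB and 0.0195 to 0.56 FPKM in DSS_ICB_Fp (-2.03 ± 0.41, adjusted p = 0.0594). Trem1, a receptor that amplifies myeloid responses, was at 0.781 to 14.9 FPKM against 0 to 0.328 FPKM (-2.37 ± 0.48, adjusted p = 0.0609). Acod1, which makes itaconate in activated myeloid cells, was at 2.12 to 102 FPKM against 0.0228 to 0.907 FPKM (-3.44 ± 0.75, adjusted p = 0.0712). In this list Cxcr2, Trem1, Acod1, Mmp9 and Fpr2 reached 1 FPKM in no gavaged mouse. They passed the filter on low values mostly through DSS_ICB mice. That choice favours lower gavaged values, so the count without overlap and the median of this list rest partly on the filter.

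Members of the list did not all take this course. Ly6g, the gene of the surface antigen used to mark mouse neutrophils, was at 171, 204, 87.2, 226 and 502 FPKM in DSS_ICB and at 127, 110, 163, 187 and 109 FPKM in DSS_ICB_Fp, and the groups overlapped (-0.57 ± 0.36, adjusted p = 0.354). It was lowest in DSS_ICB 3, where S100a8 was highest and Epcam lowest. Cd177, another neutrophil surface gene, was higher in most gavaged mice, at 98.9, 51.5, 72.9, 90.4 and 18.1 FPKM against 57.2, 13.8, 1.1, 19.5 and 7.08 FPKM (2.23 ± 0.71, adjusted p = 0.115). The cells that these 2 transcripts came from were not tested.

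Among CXC chemokines, of which Cxcl1, Cxcl2 and Cxcl5 draw neutrophils, Cxcl2 fell. It was at 15.2, 9.14, 112, 4.8 and 102 FPKM in DSS_ICB against 0.0902, 0.204, 0.112, 1.48 and 0.0262 FPKM in DSS_ICB_Fp (-4.30 ± 0.68, adjusted p = 0.0229, and -3.77 with 0.0492 without DSS_ICB 3). Its near relative Cxcl1 was at 2.17 to 12.7 FPKM against 0 to 1.58 FPKM with no overlap (-1.87 ± 0.38, adjusted p = 0.0609). Cxcl5 overlapped, at 10.3 to 59 FPKM against 2.17, 2.7, 4.39, 26.4 and 0.909 FPKM (-2.26 ± 0.65, adjusted p = 0.0968), because mouse 4 of the gavaged group lay above 3 DSS_ICB mice. Of 14 listed members 9 passed the filter and all 9 were below 0, with a median of -0.96.

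The 250 bases before the RefSeq start of Cxcl2 are shown because they hold the only match among the genes that fell to the NF-kB motif GGGANTTTCC, on either strand. NF-kB is the factor that inflammatory receptors switch on. The window is chr5:90903649-90903898 on the plus strand of GRCm38.p6, from RefSeq, and the capitals mark the match, 97 to 88 bases before the start. A match occurs in such windows of 0.414% of 27025 genes.

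Cxcl2: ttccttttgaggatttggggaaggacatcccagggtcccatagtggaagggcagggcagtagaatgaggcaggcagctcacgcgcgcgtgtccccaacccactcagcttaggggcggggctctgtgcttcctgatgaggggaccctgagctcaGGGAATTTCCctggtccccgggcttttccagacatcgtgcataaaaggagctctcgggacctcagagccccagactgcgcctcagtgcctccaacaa

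Of 14 tested CC chemokines (17 listed), Ccl22 fell, and 2 had no overlap and lay lower. Ccl22, which attracts regulatory T cells, was at 1.46, 1.46, 2.22, 1.81 and 4.41 FPKM against 0.214, 0.0687, 0.62, 0.382 and 0.646 FPKM (-1.19 ± 0.20, adjusted p = 0.0272, and 0.0574 without DSS_ICB 3). Ccl3, a macrophage inflammatory protein, was at 3.59, 3.02, 40.9, 2.63 and 63.3 FPKM against 0, 0.674, 0.608, 0.607 and 0 FPKM (-3.07 ± 0.69, adjusted p = 0.0712). Both genes were highest in DSS_ICB 5. Neither reached 1 FPKM in a gavaged mouse, so both passed the filter on low values through the other mice. Ccl28, which colon epithelium makes, went the other way at 0.678 to 36.8 FPKM against 35.3 to 68.2 FPKM (1.77 ± 0.62, adjusted p = 0.137), and its lowest value was that of DSS_ICB 3. The list median was -0.98.

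Il1b, the secreted cytokine that the inflammasome activates, fell. It was at 39.3, 20.8, 160, 19.9 and 211 FPKM in DSS_ICB against 2.98, 0.462, 3.74, 7.11 and 0.963 FPKM in DSS_ICB_Fp (-4.09 ± 0.63, adjusted p = 0.0229, and 0.0574 without DSS_ICB 3). Its decoy receptor Il1r2 was at 1.46 to 18.8 FPKM against 0.0949 to 1.61 FPKM (-2.22 ± 0.44, adjusted p = 0.0556), where 1 mouse of each group crossed. Il1a, the other form of the cytokine, had a difference of -2.55 ± 0.62 with no overlap (adjusted p = 0.0802), and Il1rl1, the receptor of Il33, one of -2.41 ± 0.49 (adjusted p = 0.0594). Of 18 tested members of the IL-1 family list (24 listed) 1 fell, 2 had no overlap and lay lower, 7 were lower and 2 higher at an unadjusted p under 0.05, and the median was -0.20 with 7 above 0.

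Il11, a stromal cytokine that signals through the shared receptor chain gp130, fell. It was at 4.6, 6.65, 10.5, 1.65 and 10.5 FPKM against 0.321, 0.244, 0.237, 0.77 and 0.108 FPKM (-2.37 ± 0.33, adjusted p = 0.00934, and 0.0156 without DSS_ICB 3). Osm, a gp130 cytokine of myeloid cells, was at 3.32, 1.69, 10.1, 1.29 and 16.3 FPKM against 0.132, 0.0258, 0.0936, 0.275 and 0.159 FPKM (-2.28 ± 0.43, adjusted p = 0.0515). Its receptor Osmr was at 1.98 to 8.82 FPKM against 0.914 to 2.1 FPKM (-1.08 ± 0.32, adjusted p = 0.104). Of the 3 genes only Il11 passed, and Osm alone of the others had no overlap. As Osm reached 1 FPKM only in the DSS_ICB mice, it passed the filter on low values through them. Its lack of overlap was thus fixed by the filter. Il11 reached 1 FPKM in the 5 DSS_ICB mice, in DSS 2 (1.22 FPKM) and in no gavaged mouse. It too passed the filter mostly through the DSS_ICB mice.

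Socs3, the feedback inhibitor that gp130 signalling induces, was at 8.84, 10.4, 42.6, 17.3 and 62.1 FPKM against 4.25, 2.52, 4.42, 17.5 and 2.12 FPKM (-1.98 ± 0.54, adjusted p = 0.0906). All 16 tested members of the gp130 list (18 listed) were below 0, with a median of -0.54; 1 fell and 3 had no overlap. Il6, another gp130 cytokine, did not pass the filter on low values, at 0.307 to 2.37 FPKM against 0 to 0.182 FPKM. Il22, a cytokine that acts on epithelium, was at 17.8 FPKM in DSS_ICB 5 and at most 0.0593 FPKM in the other 9 mice.

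Tnf, the cytokine that anti-TNF colitis therapy blocks, was at 2.99, 2.93, 10.2, 3.54 and 12.7 FPKM against 1.59, 0.969, 1.87, 1.99 and 0.606 FPKM (-1.46 ± 0.36, adjusted p = 0.0802), with no overlap. Of the 20 tested members of the TNF and NF-kB list (21 listed) 0 passed in limma and 4 had no overlap and lay lower, a count that was 1 with median-of-ratios scaling. At an unadjusted p under 0.05, 10 were lower. The median was -0.47. Bcl2a1b, a survival gene that NF-kB induces, had the smallest p of the list, at 9.59 to 28.1 FPKM against 3.45 to 9.04 FPKM (-1.43 ± 0.27, adjusted p = 0.0515).

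Acute-phase genes split. Saa3, a serum amyloid of macrophages and stroma, fell from 10.6, 5.09, 23.2, 11.7 and 31.5 FPKM to 0.307, 0.78, 0.32, 1.53 and 0.0227 FPKM (-3.29 ± 0.40, adjusted p = 0.00481, and 0.0112 without DSS_ICB 3). Saa1, its epithelial relative, took no such course, at 337, 274, 72.1, 680 and 531 FPKM against 418, 407, 352, 305 and 383 FPKM (0.30 ± 0.45, adjusted p = 0.726, and -0.21 without DSS_ICB 3). The direction of Saa1 therefore turned on DSS_ICB 3.

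Lrg1, a leucine-rich glycoprotein of the acute phase, was at 8.27 to 28.9 FPKM against 1.73 to 6.07 FPKM (-1.95 ± 0.36, adjusted p = 0.0515). Lcn2, an iron-withholding protein used as a stool marker of colitis, was at 2.91, 2.34, 26.8, 2.65 and 11 FPKM against 0.312, 0.961, 0.718, 1.24 and 0.549 FPKM (-2.0 ± 0.47, adjusted p = 0.0754). Haptoglobin (Hp) was at 5.71 to 38.4 FPKM against 0.273 to 3.43 FPKM (-2.64 ± 0.52, adjusted p = 0.0559). These 3 did not overlap between groups, and of 15 tested members (22 listed) 5 did not, all lower. The list median was -0.10 and moved to -0.56 without DSS_ICB 3. Not all members lay below 0, and the epithelial oxidase Nox1 had a difference of 1.65, and 0.92 without that library.

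The matrix metalloproteinases Mmp3, Mmp10 and Mmp13 fell, and they are neighbours in a cluster on mouse chromosome 9. The 250 bases before the RefSeq start of each, and of Il11, are shown because all 4 hold a match to TGANTCA, the motif of AP-1, a factor that growth factors and cytokines activate. They are the only such genes among the 17 genes that fell and have a RefSeq window, and 7.82% of 27025 genes have a match. The motifs were chosen after the genes were seen, and a match is a description of the sequence. Windows are on GRCm38.p6: chr9:7502092-7502341 (plus strand) for Mmp10, chr9:7272264-7272513 (plus) for Mmp13, chr9:7445572-7445821 (plus) for Mmp3 and chr7:4778142-4778391 (minus) for Il11. Each is written 5′ to 3′ along the gene, with the match in capitals.

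Mmp10: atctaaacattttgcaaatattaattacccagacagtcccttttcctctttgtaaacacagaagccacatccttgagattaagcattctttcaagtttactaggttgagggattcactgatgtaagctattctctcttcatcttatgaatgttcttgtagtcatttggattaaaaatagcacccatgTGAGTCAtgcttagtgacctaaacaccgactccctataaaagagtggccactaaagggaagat

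Mmp13: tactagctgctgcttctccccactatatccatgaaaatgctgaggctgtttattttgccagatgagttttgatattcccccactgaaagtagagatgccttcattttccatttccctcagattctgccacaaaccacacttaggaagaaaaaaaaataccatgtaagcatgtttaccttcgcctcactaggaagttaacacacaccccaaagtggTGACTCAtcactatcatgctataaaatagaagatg

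Mmp3: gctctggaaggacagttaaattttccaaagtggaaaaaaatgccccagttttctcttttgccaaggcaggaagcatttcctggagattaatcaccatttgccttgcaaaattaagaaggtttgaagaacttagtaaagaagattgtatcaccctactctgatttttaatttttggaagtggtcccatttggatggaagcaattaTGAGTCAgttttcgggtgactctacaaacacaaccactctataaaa

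Il11: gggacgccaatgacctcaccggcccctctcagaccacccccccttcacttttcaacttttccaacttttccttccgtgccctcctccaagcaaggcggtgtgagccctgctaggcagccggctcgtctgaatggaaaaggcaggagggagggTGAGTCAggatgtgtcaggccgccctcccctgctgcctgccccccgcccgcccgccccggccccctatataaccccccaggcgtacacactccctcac

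The capitals lie 63 to 57 bases before the start in Mmp10, 35 to 29 in Mmp13, 46 to 40 in Mmp3 and 98 to 92 in Il11. The 3 metalloproteinase windows also hold the TATA box letters TATAAA on the gene's strand, as do those of Il1b and S100a8, 5 of 17 genes against 14.3% of all genes. A C/EBP motif TTNCNCAA, of the factor that drives myeloid genes, was found in the windows of Il1b, S100a9, Clec4d, Cxcl2 and Col18a1, 5 of 17 against 13.2%. Neither the cyclic AMP element TGACGTCA (1.77% of all genes) nor the STAT motif TTCNNNGAA (8.13%) was found in any of the 17 windows. Both strands were searched for every motif, and matches to different motifs did not overlap each other in these windows.

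**Figure D3:**
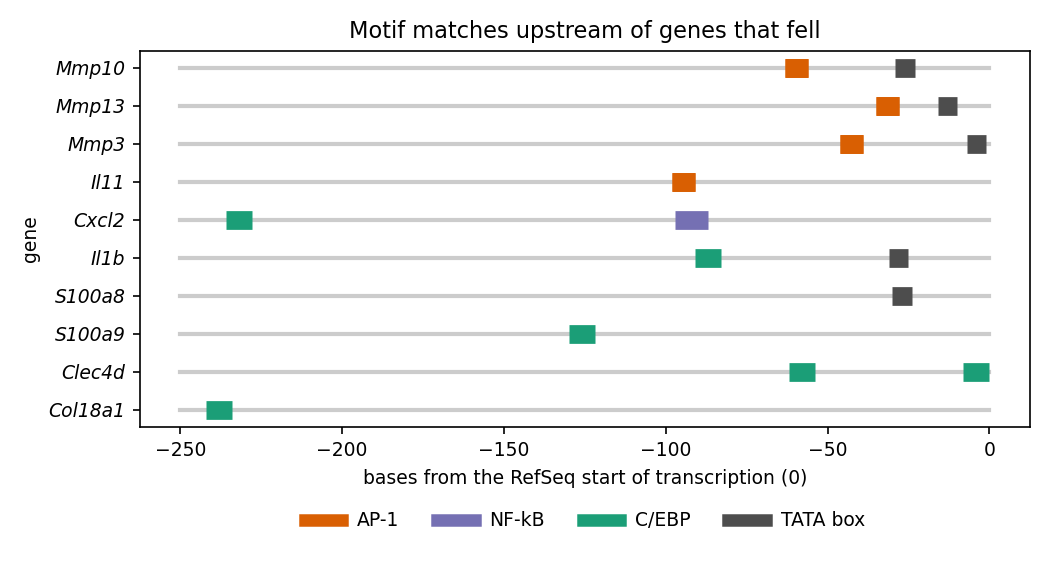
Positions of motif matches (coloured blocks) in the 250 bases before the RefSeq start of 10 of the genes that fell (grey lines, x axis in bases from the start). The AP-1 blocks of Mmp10, Mmp13, Mmp3 and Il11 lie between 98 and 29 bases before the start, and the NF-kB block of Cxcl2 lies 97 to 88 bases before it.

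Mmp10, a stromelysin that colon epithelium makes at wounds, was at 10.1, 8.01, 13.4, 8.46 and 18.9 FPKM in DSS_ICB and at 0.78, 0.376, 0.566, 3.35 and 0.644 FPKM in DSS_ICB_Fp (-2.65 ± 0.32, adjusted p = 0.00481, and 0.0112 without DSS_ICB 3). Mmp13, a collagenase, was at 5.05, 7.9, 13.4, 5.13 and 20.3 FPKM against 0.777, 0.956, 1.77, 2.68 and 1.18 FPKM (-2.07 ± 0.33, adjusted p = 0.0229, and 0.0574). Mmp3, a stromelysin of fibroblasts, was at 5.23, 11.7, 28.7, 21.8 and 25.1 FPKM against 0.722, 2.49, 1.42, 3.58 and 1.03 FPKM (-2.67 ± 0.46, adjusted p = 0.034, and 0.0724). Mouse 4 was the highest of the gavaged mice in all 3, and the lowest DSS_ICB mouse of each still lay above it.

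The other 6 genes of the chromosome 9 cluster in the files did not pass the filter on low values. Of these, Mmp8, the collagenase of neutrophils, was at 0.296 to 7.18 FPKM in DSS_ICB and listed at 0 in 4 gavaged mice, with 0.145 FPKM in mouse 4. Mmp12, of macrophages, was at 0.205 to 1.23 FPKM against 0.111 to 0.253 FPKM, and Mmp7, of Paneth cells, at 0.123 to 0.862 FPKM against 0.0563 to 0.982 FPKM. Elsewhere in the genome, Timp1, the inhibitor that binds these enzymes, was at 12.8, 24, 83.7, 16.3 and 38.5 FPKM against 1.69, 2.92, 3.59, 12.5 and 0.839 FPKM (-2.80 ± 0.54, adjusted p = 0.0515). The 3 enzymes that fell and Timp1 were thus all lower. Of the other inhibitors, Timp2 and Timp3 had differences of -0.55 ± 0.34 and -0.70 ± 0.36, and Timp4 one of 0.63 ± 0.18 (adjusted p = 0.103). Of 20 tested members of the list (23 listed) 3 fell, 6 had no overlap and lay lower, and the median was -1.07 (-0.98 without DSS_ICB 3). At an unadjusted p under 0.05, 14 were lower and 1 higher.

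Calprotectin genes also sit in a cluster, that of the S100a genes on chromosome 3, and no neighbour in it passed. S100a6 was at 391 to 1082 FPKM against 320 to 670 FPKM (-0.36 ± 0.27, adjusted p = 0.451). S100a1 and S100a14, on the same stretch, had differences of 0.19 ± 0.17 and 0.00 ± 0.35. The member with the next largest difference was S100a4, at 32.7 to 159 FPKM against 15.6 to 48.8 FPKM (-1.49 ± 0.39, adjusted p = 0.0854).

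Of 26 collagen and matrix genes, all tested, Col18a1 fell. Col18a1, a basement membrane collagen, was at 17.7, 11.4, 19.8, 10.1 and 25.5 FPKM against 4.59, 6.95, 5.29, 7.73 and 5.39 FPKM (-1.30 ± 0.22, adjusted p = 0.034, and 0.0683 without DSS_ICB 3). Col3a1, a fibrillar collagen, was at 196, 171, 262, 175 and 294 FPKM against 74.2, 142, 84.7, 119 and 84.2 FPKM (-1.12 ± 0.21, adjusted p = 0.0515). Lox, which crosslinks collagen, was at 4.04 to 18.4 FPKM against 0.932 to 2.45 FPKM (-1.58 ± 0.32, adjusted p = 0.061). In 7 of the 26 the groups did not overlap, with the gavaged mice lower, and the list median was -0.89 (-0.71 without DSS_ICB 3).

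Wnt4, a signalling ligand of stroma, fell from 3.32, 5.49, 8.43, 3.35 and 4.58 FPKM to 1.56, 1.49, 1.8, 1.48 and 1.65 FPKM (-1.16 ± 0.18, adjusted p = 0.0229, and 0.0135 without DSS_ICB 3). The spread among gavaged mice was narrow in this gene. Lgi2 fell from 3.4 to 9.03 FPKM in DSS_ICB to 0.437 to 2.53 FPKM (-1.66 ± 0.27, adjusted p = 0.0261), and Ifitm1, an interferon-inducible membrane gene, from 55.9 to 195 FPKM to 15.5 to 43 FPKM (-2.0 ± 0.35, adjusted p = 0.034). Both lost their call without DSS_ICB 3 (0.0574 each).

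No fibroblast gene passed in limma among 18 tested (23 listed), 14 were lower at an unadjusted p under 0.05, 8 had no overlap with the gavaged mice lower, and all 18 were below 0 with a median of -0.78 (-0.64 without DSS_ICB 3). Ptgs2, the inducible cyclooxygenase, was at 7.47, 16.9, 22.1, 6.1 and 49.2 FPKM against 2.25, 1.54, 4.8, 1.27 and 1.73 FPKM (-2.41 ± 0.53, adjusted p = 0.0712). Pdpn, a marker of activated fibroblasts, was at 15.6 to 49 FPKM against 6.48 to 14.3 FPKM (-1.53 ± 0.30, adjusted p = 0.0515), and Inhba, an activin subunit, at 1.89 to 10.2 FPKM against 0.762 to 0.985 FPKM (-1.46 ± 0.28, adjusted p = 0.0515). Pdgfra, which marks fibroblasts at rest as well, was at 9.37 to 24.5 FPKM against 5.53 to 7.68 FPKM (-0.96 ± 0.22, adjusted p = 0.0712).

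Endothelial genes had the same form, with 0 of 21 tested (25 listed) passing in limma, 19 lower at an unadjusted p under 0.05, 6 without overlap, all 21 below 0 and a median of -0.79 (-0.64 without DSS_ICB 3). With median-of-ratios scaling 3 had no overlap. Selp, the selectin on which leukocytes roll, was at 2.29, 3.44, 3.09, 2.1 and 10.6 FPKM against 0.478, 0.559, 0.407, 1.94 and 0.563 FPKM (-1.43 ± 0.32, adjusted p = 0.0712). Vcam1 and Icam1, to which leukocytes adhere, had differences of -1.03 ± 0.27 and -0.99 ± 0.27 (adjusted p = 0.0873 and 0.0926), both without overlap. Pecam1, a marker of vessels in any state, overlapped at 9.39 to 23.6 FPKM against 6.17 to 9.64 FPKM (-0.92 ± 0.24, adjusted p = 0.0864).

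Of 26 tested macrophage and monocyte genes (28 listed), 0 passed in limma, 11 were lower at an unadjusted p under 0.05, 4 had no overlap and lay lower, and the median was -0.53 (-0.78 without DSS_ICB 3). Spp1, osteopontin, was at 2.18, 1.31, 22.8, 2.13 and 20 FPKM against 0.237, 0.14, 0.122, 0.364 and 0.108 FPKM (-2.45 ± 0.55, adjusted p = 0.0712). Like Osm, Spp1 reached 1 FPKM only in the DSS_ICB mice, so its lack of overlap was fixed by the filter. Fcer1g, the signalling chain of Fc receptors, was at 23.5 to 61.3 FPKM against 9.32 to 21.3 FPKM (-1.25 ± 0.27, adjusted p = 0.0712). Cd68, a lysosomal marker of macrophages, was at 27, 22.4, 13.5, 29.4 and 64.8 FPKM against 14, 12.1, 18, 18.4 and 7.26 FPKM (-1.0 ± 0.33, adjusted p = 0.126), where the only overlap came from DSS_ICB 3. Other members differed little, with Adgre1 at -0.01 ± 0.43, Cx3cr1 at -0.02 ± 0.22 and Cd163 at -0.19 ± 0.31. Of the 26 genes 23 were below 0, and the 3 above it were Mertk (0.67 ± 0.32), Plac8 (0.38 ± 0.36) and Ly6c2 (0.13 ± 0.30).

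Lymphocyte genes did not separate the groups. Of 11 tested T cell genes (28 listed) and 20 tested B cell genes (23 listed), 0 passed in limma and 0 were without overlap, with medians of -0.50 and -0.93. At an unadjusted p under 0.05, 5 T cell genes were lower, and 8 B cell genes were lower and 1 higher. Trbc2, a T cell receptor constant gene, was at 2.96, 6.81, 9.72, 9.63 and 9.01 FPKM against 3.68, 1.45, 2.79, 2.75 and 4.98 FPKM (-1.04 ± 0.28, adjusted p = 0.0904). Cd79a, of the B cell receptor, varied by mouse, at 4.89, 11.9, 40.7, 49.2 and 61.6 FPKM against 0.987, 0.288, 6.25, 0.574 and 28.7 FPKM (-2.70 ± 0.97, adjusted p = 0.142). Plasma cell genes did not have 1 direction. Igha, the constant region of IgA, was at 88.2, 100, 11.7, 58.4 and 124 FPKM against 211, 63.4, 144, 40.3 and 523 FPKM (1.13 ± 0.70, adjusted p = 0.353), and Jchain at 3.54 to 36.1 FPKM against 15.1 to 142 FPKM (1.39 ± 0.62, adjusted p = 0.213). Mzb1, Sdc1 and Prdm1, of the same cells, had differences of -0.38 ± 0.49, -0.30 ± 0.21 and -0.35 ± 0.32, and Igkc one of 0.18 ± 0.57.

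MHC class II genes (12 tested, median -0.56) and interferon response genes (23 tested of 26 listed, median -0.26) also had 0 that passed in limma and 0 without overlap. In the interferon list the smallest p values were those of Bst2 (-0.60 ± 0.19, adjusted p = 0.119) and Irf1 (0.38 ± 0.16, adjusted p = 0.194), with opposite signs. In the class II list the accessory gene H2-Ob, which B cells express, was at 1.2 to 12.6 FPKM against 0.0892 to 4.14 FPKM (-1.56 ± 0.60, adjusted p = 0.16). At an unadjusted p under 0.05, 2 class II genes were lower, and 1 interferon gene was lower and 1 higher.

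**Figure D4:**
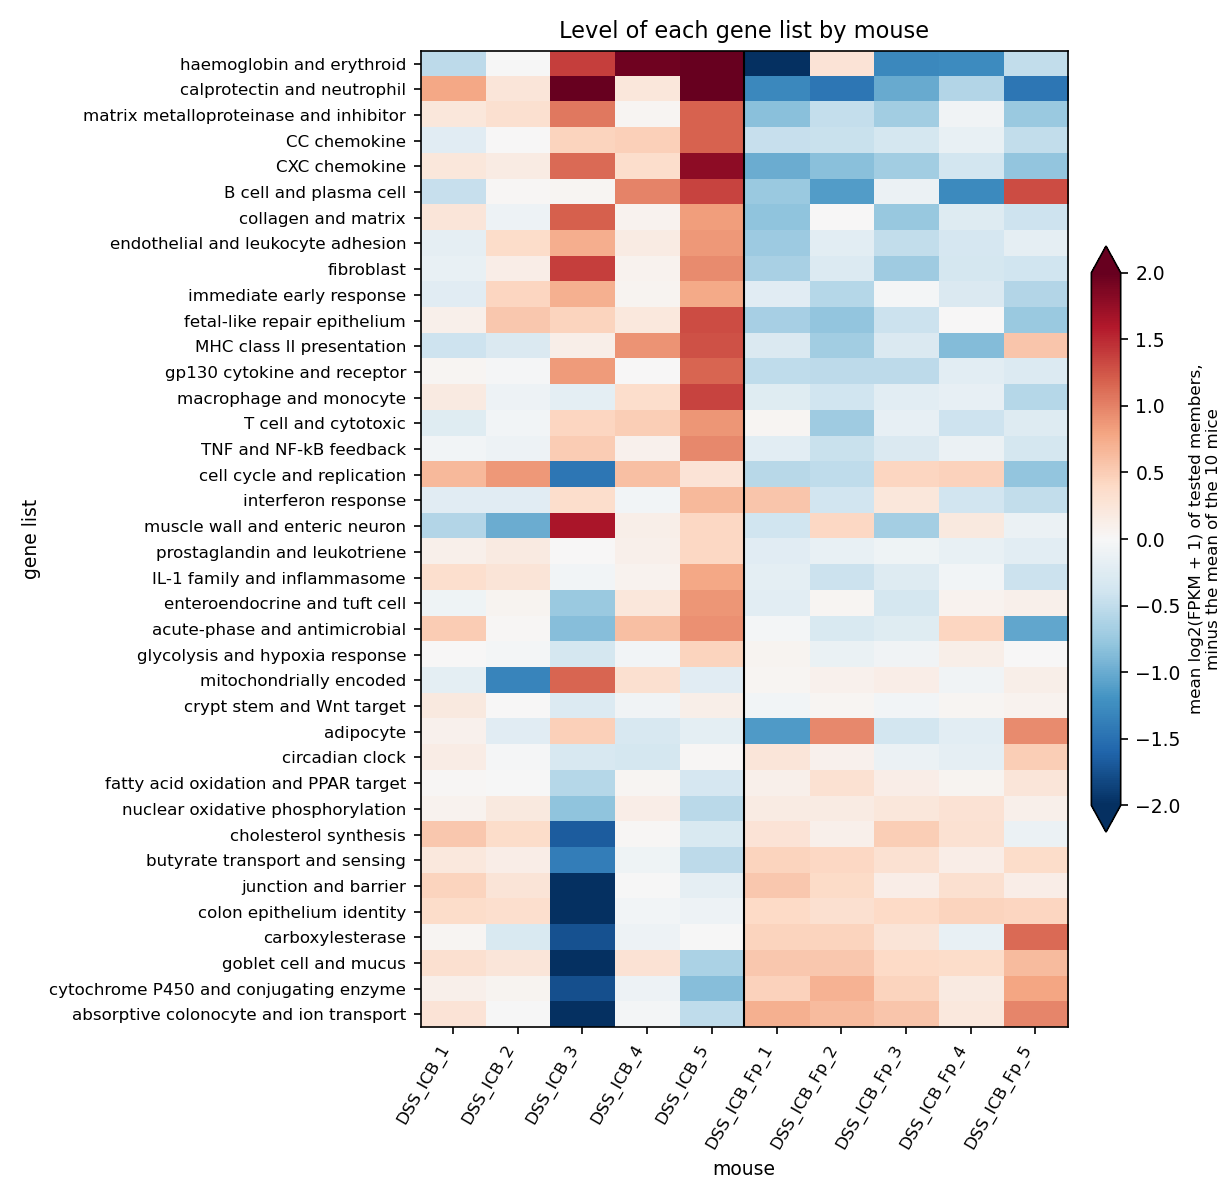
Mean log2(FPKM + 1) of the tested members of each gene list (rows) in each of the 10 mice (columns), minus the mean of the 10 mice, from blue (lower) to red (higher), with the colours at their limit beyond 2 either way. DSS_ICB 3 is dark blue in the rows of colonocyte, goblet and colon epithelium genes and red in the muscle row, and DSS_ICB 5 is red in most immune rows.

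On the higher side, Ces1e, a carboxylesterase that hydrolyses esters of drugs and lipids, rose. It was at 0.875, 0.927, 0, 0.3 and 0.106 FPKM in DSS_ICB and at 2.74, 2.45, 2.26, 1.16 and 3.53 FPKM in DSS_ICB_Fp (1.26 ± 0.22, adjusted p = 0.034, and 0.0717 without DSS_ICB 3). Reads of close copies in the Ces1 family may be split, so this value is uncertain. The lowest gavaged value was again that of mouse 4. Of 9 tested carboxylesterase genes (16 listed) 1 rose, and Ces1d, which overlapped, was at 2.42 to 7.66 FPKM against 6.48 to 26.1 FPKM (0.99 ± 0.32, adjusted p = 0.119).

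The next genes by p value on this side did not pass. Slc34a2, a phosphate carrier of epithelium, was at 3.9, 2.75, 0.0917, 2.36 and 1.08 FPKM against 18, 8.1, 9.1, 4.62 and 11.7 FPKM with no overlap (1.96 ± 0.38, adjusted p = 0.0515). Sult1a1, a sulfotransferase that conjugates phenols, was at 31.2, 32.8, 3.47, 14.3 and 4.69 FPKM against 99.9, 90.5, 70, 28.5 and 126 FPKM (2.5 ± 0.55, adjusted p = 0.0712). Ugt1a1, which conjugates bilirubin, was at 2.28, 5.33, 0, 1 and 1.87 FPKM against 20.7, 12.2, 10.2, 4.08 and 7.2 FPKM (2.03 ± 0.47, adjusted p = 0.0716). In the latter 2, only mouse 4 of the gavaged group overlapped with DSS_ICB. Pde8b (0.73 ± 0.15), Nxpe4 (1.51 ± 0.33) and Ccnjl (0.87 ± 0.19) were, with Ces1e, Slc34a2 and Sult1a1, the 6 with the smallest p on this side (adjusted p = 0.0706, 0.0712 and 0.0712). Of 28 tested P450 and conjugating enzyme genes (34 listed) 0 passed in limma, 15 were higher and 2 lower at an unadjusted p under 0.05, 1 had no overlap, and the median was 1.0 (0.72 without DSS_ICB 3).

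Colonocyte genes lay above 0 as a list, with 26 of 27 tested members above it (28 listed) and a median of 1.12, which was 0.57 without DSS_ICB 3. None passed in limma, 19 were higher at an unadjusted p under 0.05, and 5 had no overlap with the gavaged mice higher (Car4, Scnn1b, Scnn1g, Atp12a and Hsd11b2). Car4, a carbonic anhydrase of the brush border, was at 122, 122, 19.3, 199 and 156 FPKM against 335, 296, 320, 201 and 451 FPKM (1.65 ± 0.47, adjusted p = 0.0982). Scnn1g, a subunit of the sodium channel that aldosterone controls, was at 2.08, 0.775, 0.213, 0.881 and 2.14 FPKM against 4.95, 3.39, 3.58, 3.47 and 3.43 FPKM (1.18 ± 0.28, adjusted p = 0.0754). Hsd11b2, the enzyme that protects the aldosterone receptor from cortisol, was at 1.17 to 63.1 FPKM against 65.1 to 140 FPKM (2.28 ± 0.73, adjusted p = 0.118). Slc26a3, the chloride and bicarbonate exchanger of the colon surface, was at 31.6, 22.6, 0.296, 26.3 and 4.84 FPKM against 69, 92.4, 86.2, 25.9 and 184 FPKM (2.82 ± 0.74, adjusted p = 0.0862, and a difference of 2.05 without DSS_ICB 3), with mouse 4 alone inside the DSS_ICB range. As DSS_ICB 3 was low in Epcam, the part that its makeup has in these list medians was not tested beyond leaving it out.

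Goblet cell genes (19 tested of 20, median 0.97) and junction genes (25 tested, median 0.69) shrank further without that library, to 0.40 and 0.15. In limma 0 of both lists passed, and at an unadjusted p under 0.05 6 goblet genes were higher, and 9 junction genes were higher and 1 lower. The mucin Muc2 was at 213, 187, 13, 260 and 150 FPKM against 265, 281, 244, 240 and 300 FPKM (1.18 ± 0.60, adjusted p = 0.262, and a difference of 0.42 without DSS_ICB 3). Tjp1, a scaffold of tight junctions, did not separate the groups at 16.2 to 28.6 FPKM against 18 to 25.2 FPKM (0.03 ± 0.15, adjusted p = 0.919). Pigr, which carries IgA across the epithelium, was at 898, 623, 75.4, 560 and 273 FPKM against 1372, 1065, 1035, 780 and 1179 FPKM (1.55 ± 0.49, adjusted p = 0.119). Cldn1, a claudin, lay the other way at 1.65 to 5.53 FPKM against 0.975 to 1.58 FPKM (-0.72 ± 0.25, adjusted p = 0.13), with no overlap, while Cldn15, which forms a sodium pore, was at 1.13 to 9.4 FPKM against 9.52 to 14.3 FPKM (1.22 ± 0.39, adjusted p = 0.119).

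Genes for butyrate uptake and use were followed because the gavaged bacterium is known to make butyrate. Slc5a8, the sodium-coupled butyrate carrier, was at 39.2, 28.7, 0.324, 19.3 and 5.6 FPKM against 70.7, 73.6, 55.3, 24.8 and 73.8 FPKM (2.29 ± 0.72, adjusted p = 0.113, and a difference of 1.5 without DSS_ICB 3). Acads, the dehydrogenase that oxidises butyrate, was at 24, 38.9, 9.75, 17.1 and 8.95 FPKM against 41.2, 48.7, 37.3, 36.7 and 43.2 FPKM (1.22 ± 0.33, adjusted p = 0.0873). Ffar2, a receptor for short-chain fatty acids, had a difference of 0.04 ± 0.16 (adjusted p = 0.907). Slc16a3, the lactate exporter of glycolytic cells, lay lower at 3.23 to 13.5 FPKM against 1.08 to 2.9 FPKM with no overlap (-1.25 ± 0.31, adjusted p = 0.0844). Of 15 tested members (20 listed) 0 passed in limma, 8 were higher and 1 lower at an unadjusted p under 0.05, and the median was 0.60 (0.45 without DSS_ICB 3).

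The median of fatty acid oxidation genes moved little when DSS_ICB 3 was left out, from 0.36 over 22 tested members (26 listed) to 0.33. Without DSS_ICB 3 and DSS_ICB 5, the 2 lowest mice in the mean level of this list, it was 0.22. None passed in limma, and 4 had no overlap with the gavaged mice higher. At an unadjusted p under 0.05, 12 were higher and 1 lower. The lower member was Angptl4, at 0.848 to 6.39 FPKM against 0.127 to 0.848 FPKM (-1.17 ± 0.34, adjusted p = 0.103). Of the 22 members 5 lay below 0, among them Pdk4 (-0.30 ± 0.35) and Cd36 (-0.07 ± 0.28). Acadm, the medium-chain dehydrogenase, was at 21.4, 21.9, 14.9, 19.4 and 11.9 FPKM against 33.9, 31.1, 28.2, 23 and 31.1 FPKM (0.71 ± 0.16, adjusted p = 0.0712). The groups did not overlap in it or in Cpt2, Acadvl and Acaa2, with differences of 0.56 ± 0.18, 0.33 ± 0.11 and 0.50 ± 0.18. Nuclear genes of oxidative phosphorylation were all above 0 (26 of 26, median 0.39, and 0.22 without DSS_ICB 3), with 1 without overlap and 6 with median-of-ratios scaling. Glycolysis genes had a median of 0.05 over 24 and cholesterol synthesis genes 0.40, the latter 0.04 without DSS_ICB 3.

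**Figure D5:**
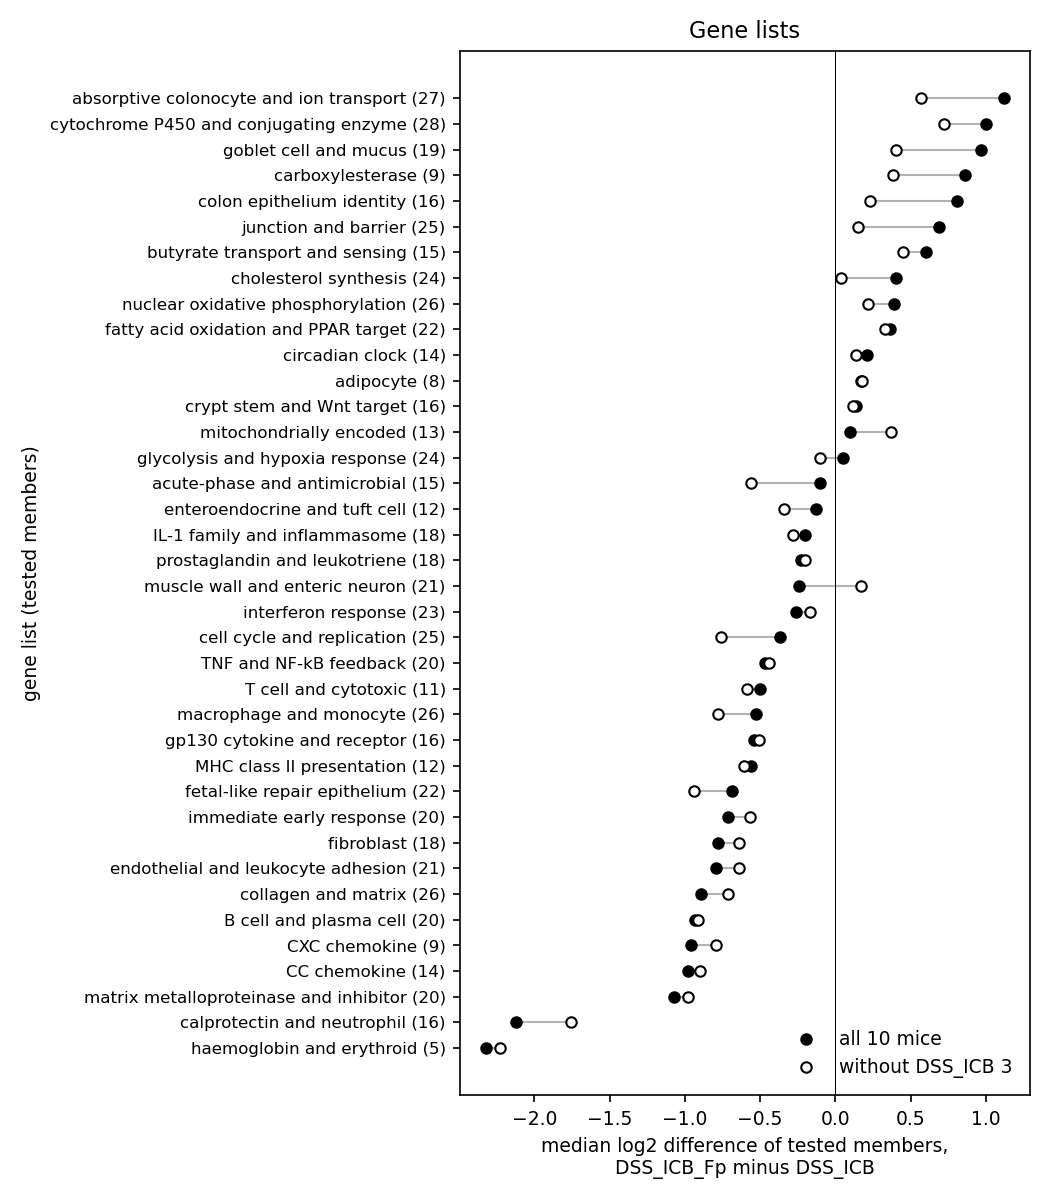
Median log2 difference (x axis, DSS_ICB_Fp minus DSS_ICB) of the tested members of each of 38 gene lists (y axis, with the number of members), from all 10 mice (filled) and without DSS_ICB 3 (open). Neutrophil genes lie at -2.12 and -1.76, and colonocyte genes at 1.12 and 0.57. The lists whose median changes sign without DSS_ICB 3 are muscle wall, from -0.24 to 0.17, and glycolysis, from 0.05 to -0.10.

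The cell cycle list looked different without DSS_ICB 3. With all 10 mice the median was -0.37 over 25 members, 0 passed in limma, 0 had an unadjusted p under 0.05 and 0 were without overlap. Rrm2, a subunit of the enzyme that makes DNA building blocks, was at 24.7, 35.2, 5.39, 26.4 and 28.4 FPKM against 8.56, 6.71, 22.7, 24 and 5.07 FPKM (-0.83 ± 0.48, adjusted p = 0.322). Without DSS_ICB 3, whose value was the lowest of its group, the difference was -1.28. The list median was then -0.76 with 4 without overlap, beside 4.7% of all genes. Without DSS_ICB 3 and DSS_ICB 5 it was -0.86 with 12 of 25 without overlap, beside 6.08% of all genes. In the mean level of this list, DSS_ICB 3 lay below all gavaged mice. Gavaged mice 3 and 4 lay near the other DSS_ICB mice, and gavaged mice 1, 2 and 5 lay below those. Mki67, a marker of dividing cells, was at 37.9, 45.9, 4.54, 33 and 23.9 FPKM in DSS_ICB. In DSS_ICB_Fp it was at 15.6, 16.9, 35.2, 25.5 and 9.9 FPKM.

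Genes of the fetal-like state that colon epithelium takes on in repair had a median of -0.69 over 22 members (24 listed), and -0.94 without DSS_ICB 3. None passed in limma, 12 were lower at an unadjusted p under 0.05, and 3 had no overlap with the gavaged mice lower. Among these 3 is Spp1, which passed the filter through the DSS_ICB mice alone. Ereg, a ligand of the EGF receptor, was at 14.9, 16.1, 20.6, 4.33 and 33 FPKM against 1.01, 2.67, 2, 6.85 and 1.69 FPKM (-2.23 ± 0.50, adjusted p = 0.0712), and only mouse 4 overlapped. Crypt stem and Wnt target genes had a median of 0.14, with Cd44 at -1.02 ± 0.26 (adjusted p = 0.0844) and the stem cell marker Lgr5 at 0.49 ± 0.23 (adjusted p = 0.232). At an unadjusted p under 0.05, 3 of the 16 tested stem and Wnt target genes were lower and 2 higher.

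Blood and other tissue in the samples varied by mouse. The haemoglobin gene Hbb-bs was at 43.7, 73.5, 191, 325 and 386 FPKM against 10.2, 80.8, 23.9, 22.5 and 47.4 FPKM (-2.32 ± 0.66, adjusted p = 0.0977), with mice 2 and 5 of the gavaged group overlapping. The summed level of the erythroid list ranged from 133 to 1152 FPKM in DSS_ICB and from 26.6 to 245 FPKM in DSS_ICB_Fp, and its part in the difference of neutrophil genes was not tested. The summed level of the 30 listed neutrophil genes was 396 to 2479 FPKM against 159 to 329 FPKM, and in gavaged mice Ly6g and Cd177 together made up most of the sum. Muscle and enteric neuron genes had 0 without overlap, and summed to 547 to 8731 FPKM against 784 to 2313 FPKM. DSS_ICB 1 and DSS_ICB 2, with Myh11 at 135 and 71.3 FPKM, lay below all gavaged mice in this muscle gene and above all of them in S100a8. DSS_ICB 3 was the highest of the 10 mice in both genes, at 1288 FPKM for Myh11 and 593 FPKM for S100a8. The part that muscle content has in the difference of S100a8 was not tested.

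Values of DSS mice, which had neither blockade nor gavage, are set here beside those of genes that passed. In DSS mice S100a8 was at 15.9, 10.1, 4.22, 11.8 and 6.8 FPKM, and of the gavaged mice only mouse 4, at 9.3 FPKM, lay in that range. Il1b was at 4.02 to 8.2 FPKM and Cxcl2 at 0.79 to 2.28 FPKM in DSS mice, ranges that also held mouse 4 alone. Mmp10 was at 0.475 to 2.38 FPKM in DSS mice, and Ces1e at 0.721 to 1.55 FPKM. For the 17 named genes that fell, the DSS_ICB_Fp mean was below the DSS mean in 17, and all 5 gavaged mice lay below all 5 DSS mice in 3. The 17 genes were chosen for low DSS_ICB_Fp values, which favours a low DSS_ICB_Fp mean here too. The shares over all tested genes were not counted. These are values side by side, and this difference was not tested here.

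Mouse 4 of the gavaged group was the highest of its 5 in 13 of the 17 named genes that fell. Its Socs3, at 17.5 FPKM, and its Cxcl5, at 26.4 FPKM, lay inside the DSS_ICB range, whereas its S100a8 and Il1b lay below it. In the DSS_ICB group the highest of the 5 was mouse 3 in 10 of the 17 genes and mouse 5 in the other 7. Without mouse 4 of the gavaged group 449 genes passed in limma, of which 19 were the same genes, and the counts without overlap were 843 lower and 762 higher. Leaving out a mouse makes a gap between groups easier to meet, so these counts are larger by construction as well.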

How the data were processed

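Total RNA of colon tissue from 15 mice (3 groups of 5) was measured by sequencing. The deposited values are FPKM made by the authors. Per the submitters' processing notes, reads were checked with FastQC, aligned with STAR 2.5 to mm10 and passed to Cuffnorm, with DESeq also named. The unit was read from the tools named and from the values, and a further scaling between libraries is not stated. Depths were worked out from the step size of low FPKM values, and hold only if no such scaling was made. Of 55335 Ensembl genes, 55154 matched a symbol in GENCODE M21.

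Genes with at least 1 FPKM in at least 5 of the 15 libraries were tested with limma 3.58.1 (R 4.3.3, trend and robust) on log2(FPKM + 1), a scale that understates the change of low genes. One fit held all 15 libraries, tests were two-sided, and p-values were Benjamini-Hochberg adjusted over 14385 genes. The procedure was tested on simulated data in which all groups had the same spread, taken from the DSS and DSS_ICB_Fp mice. It therefore did not try the wider spread of DSS_ICB. The 40 gene lists (841 entries, 837 matched) were counted, not tested. Unless stated, values after a ± are standard errors of a log2 difference. Labels give each mouse a number of its own, and p-values measure the spread between these mice.

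Named genes were those that passed (predicted models only counted), those with the smallest p up to 6 in a direction with fewer than 6, the 2 with the smallest p of each list with at least 5 tested members, and 12 fixed genes. Others were named after their values were seen, among them Acod1, Timp1, Hp, Trem1, Cxcr2, Cd177, Igha, Slc5a8, Socs3, Ccl28, Hsd11b2, Mki67, Plaur, Cldn8, the neighbours in gene clusters, and the motifs. The comparison and the lists were chosen with earlier results of these data known.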

Additional observations from a re-analysis of the deposited data

Results flagged for a closer look

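In 30 of 300 gene and group pairs 1 of the 5 mice lay far from the other 4 on the log2 scale (Dixon's test at the 95% level). Chance gives about 1 in 20 only for independent genes not picked on their values. Many of these genes were named after their values were seen, and 1 unusual mouse can be flagged in many genes. The 30 flags therefore cannot be read against that rate. Of the 30 pairs, 13 were in DSS_ICB_Fp 4, 9 in DSS_ICB 3 and 4 in DSS_ICB 5.

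DSS_ICB_Fp 4 was high in 9 genes. Its values were 3.35 FPKM for Mmp10, 9.3 for S100a8, 1.48 for Cxcl2, 6.07 for Lrg1, 1.94 for Selp, 0.182 for Il6, 0.328 for Trem1, 8.46 for Plaur and 0.145 for Mmp8, against at most 0.78, 0.812, 0.204, 2.48, 0.563, 0.0355, 0.0533, 2.18 and 0 FPKM in the other gavaged mice. It was low in 4 genes, at 1 FPKM for Pde8b, 24.8 for Slc5a8, 63.3 for Cldn8 and 12551 for mt-Co1, against at least 1.87, 55.3, 87.1 and 15508 FPKM in the others. Its summed level of the colon epithelium list was 8594 FPKM, the highest of the 5 gavaged mice.

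DSS_ICB 3 was low in these epithelial genes, at 19.3 FPKM for Car4, 13 for Muc2, 2.21 for Atp12a, 0.626 for Scnn1b, 2.89 for Aqp8 and 83 for Epcam, against at least 122, 150, 36.6, 2.58, 30.4 and 472 FPKM in the other DSS_ICB mice. It was also low in Ccne1 at 1.93 FPKM, Rrm2 at 5.39 FPKM and Jchain at 3.54 FPKM.

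DSS_ICB 5 was high in Selp at 10.6 FPKM, Il22 at 17.8 FPKM and Mmp12 at 1.23 FPKM, and low in Acaa2 at 18.2 FPKM. Single values far from their group were Scnn1g at 4.95 FPKM in DSS_ICB_Fp 1, Tm7sf2 at 5.92 FPKM in DSS_ICB_Fp 2, Egr2 at 0.801 FPKM in DSS_ICB_Fp 3 and Il22 at 0.0535 FPKM in DSS_ICB_Fp 5, where the other 4 mice were listed at 0.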

How the results depend on the processing

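The 19 calls (18 lower, 1 higher) became 42 (all lower) with a pseudocount of 0.1, 5 (all lower) with 10, 7 (6 lower) with no filter, 11 (all lower) with a filter at 5 FPKM, 0 with only the 10 compared mice (limma), 964 (743 lower, 221 higher) with sample quality weights, 29 (all lower, 15 of them shared) with 1 weight per group, and 525 at a threshold of 0.10. Without DSS_ICB 3 and DSS_ICB 5 there were 21, all lower and 13 shared, so the count in the higher direction was 0. Leaving out each library gave 5 to 598 calls, with 5 to 370 lower and 0 to 228 higher. The count was 598, 153, 9, 75 and 8 without DSS_ICB 1 to 5, 6, 5, 5, 449 and 5 without DSS_ICB_Fp 1 to 5, and 11 without DSS 2. The genes without overlap ranged from 374 to 843 lower and from 153 to 762 higher when a library was left out. They were 290 higher with median-of-ratios scaling, 265 higher with upper-quartile scaling, 157 lower with a filter at 5 FPKM, and 874 lower without DSS_ICB 3 and DSS_ICB 5. The causes were not tested, beyond the fewer mice or genes that some of these settings hold.

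Mmp10, Saa3 and both calprotectin genes kept an adjusted p under 0.05 in 26 of 27 alternatives, and the exception was the fit of 10 mice (0.0815 to 0.126). Il11 passed in 24 of 26, Il1b, Mmp13 and Retnlg in 19 of 27, and the other named genes with an adjusted p under 0.05 in the reported fit in 9 to 18 of 26 or 27. Directions that reversed were those of Gfap (0.03 without DSS_ICB 3 and DSS_ICB 5), mt-Nd5 (-0.20 to 0.72 over mice left out, lowest without DSS_ICB 2), Saa1 (-0.19 with sample weights, -0.21 without DSS_ICB 3 to 0.60 over mice left out, -0.10 without both), Tjp1 (-0.06 without DSS_ICB 3 to 0.14, -0.03 without DSS_ICB_Fp 1), Ffar2 (-0.04 with sample weights, -0.02 without DSS_ICB 3, -0.03 without DSS_ICB_Fp 1, -0.05 without DSS_ICB_Fp 4, up to 0.14, -0.03 without both DSS_ICB mice) and Myh11 (0.29 with sample weights, -0.62 to 0.42 over mice left out, highest without DSS_ICB 3, 0.03 without DSS_ICB_Fp 3, 0.76 without both). List medians changed sign in 16 of 1025 recalculations, in 8 lists, none of them under another scaling. No paired analysis was possible because the labels give each mouse a number of its own, and the numbers 1 to 5 used here follow accession order and tie no mice together.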

Other observations

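In the prostaglandin and leukotriene list (18 tested of 24, median -0.23), 0 passed in limma, 4 were lower and 1 higher at an unadjusted p under 0.05, and 2 had no overlap and lay lower. Alox5ap, which hands arachidonic acid to the leukotriene enzyme, was at 5.73, 4.98, 14, 7.81 and 18.8 FPKM in DSS_ICB against 2.95, 2.85, 3.74, 3.81 and 3.07 FPKM in DSS_ICB_Fp (-1.24 ± 0.27 (SE), limma adjusted p = 0.0712). Immediate early genes had a median of -0.71 over 20 tested members, of which 0 passed in limma, 9 were lower and 1 higher at an unadjusted p under 0.05, and 1 had no overlap. Egr2, a transcription factor of that class, was at 0.755 to 3.06 FPKM against 0.159 to 0.801 FPKM (-1.06 ± 0.27, adjusted p = 0.0844), with 1 mouse of each group crossing. The enteroendocrine and tuft cell list (12 tested of 19) had a median of -0.13, with 0 that passed in limma and 1 without overlap. The latter was Dclk1, a tuft cell kinase, at 1.18 to 2.56 FPKM against 0.671 to 1.05 FPKM (-0.54 ± 0.16, adjusted p = 0.0995). Avil and Ptgs1 of the same list overlapped, with differences of -0.01 ± 0.16 and -0.24 ± 0.23.

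Clock genes had a median of 0.21 over 14 tested members, of which 0 passed in limma, with 2 lower and 6 higher at an unadjusted p under 0.05. Arntl, a core activator of the clock, was at 3.51 to 7.49 FPKM against 6.35 to 9.84 FPKM (0.53 ± 0.16, adjusted p = 0.108). Of the epithelial transcription factors, Hnf4g was at 0.105 to 9.21 FPKM against 4.52 to 15.6 FPKM (1.54 ± 0.47, adjusted p = 0.108), and Atoh1, of secretory cells, at 0.391 to 15 FPKM against 14.1 to 28.8 FPKM (1.85 ± 0.54, adjusted p = 0.102). DSS_ICB 3, low in Epcam, had the lowest value in Arntl, Hnf4g and Atoh1. Ttr, the thyroid hormone carrier, named after its values were seen, was at 18.8, 17.4, 0.374, 10.5 and 2.41 FPKM against 41, 49, 36.2, 28.6 and 52.4 FPKM with no overlap (2.52 ± 0.59, adjusted p = 0.0731).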
